A study of Homo sapiens with 16 samples.

Results

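Messenger RNA was compared between PANC-1 cells that received siRNA against FLASH and PANC-1 cells left non-transfected, all of them treated with TGFb. The comparison rests on 4 of the 16 libraries of the study, 2 in each group, and was described across the 17743 genes with enough counts to be tested. PANC-1 is a human cell line established from a carcinoma of the pancreas, labelled as wild type and as epithelial cancer cells. Both groups were kept in the same serum-containing medium and had TGFb at 100 ng/ml for 48 h. They differed in siRNA against FLASH, the protein encoded by CASP8AP2. The sample titles name day 3, whereas the design text counts 4 days from transfection. A group with a non-targeting siRNA was not analysed here, and the labels do not say whether the non-transfected cells, called Mock in the descriptions, were given transfection reagent. The uptake of an siRNA and the loss of FLASH therefore cannot be told apart here. Also used were FLASH siRNA and non-transfected cells without TGFb, and cells with TGFb that received siRNA against NPAT or SLBP (2 libraries each). The question was what FLASH does in the shift between epithelial and mesenchymal states (EMT).

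FLASH is a large nuclear protein that works with the stem-loop binding protein SLBP and the U7 snRNP where replication-dependent histone genes are transcribed. Together they cut the new histone transcript just after a conserved stem-loop, so that these messengers normally end without a poly(A) tail. The coactivator NPAT switches on these histone genes as cells enter S phase. TGFb binds its receptors, activates SMAD2 and SMAD3, and drives epithelial tumour cells towards EMT. In that shift E-cadherin and other junction proteins are lost, and vimentin, fibronectin and matrix enzymes are gained, under repressors such as ZEB1, SNAI1 and SNAI2.

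The 2 control libraries (non-transfected with TGFb) held 26.3 and 27.9 M counts and the 2 libraries with FLASH siRNA and TGFb held 30.2 and 26.3 M. Counts were found for 21130 and 21336 genes in the controls and for 23938 and 24368 genes after FLASH siRNA. At the same depth of 26.3 M counts, control replicate 1 held 21130 genes and FLASH replicate 2 held 24368. Mitochondrial genes took 9.34% and 6.96% of counts in the controls and 9.92% and 8.81% after FLASH siRNA. Levels of the 2 libraries of a group correlated across genes at 0.9906 in the controls and 0.9891 after FLASH siRNA. Levels are given in CPM, counts in each 1e6 counts of the library after scaling between libraries. Of the keratins of simple epithelia, KRT8 was at 395 and 373 CPM and KRT18 at 336 and 305 CPM in the controls. The ductal keratin KRT7 was at 4.48 and 2.84 CPM in the controls. PTPRC of leukocytes and PECAM1 of endothelial cells were at 0 counts in both controls. The labels do not say that the libraries of a group came from separate cultures, so the tests measure only the spread between these libraries.

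The siRNA target fell. The level of CASP8AP2 (ENSG00000118412.12, chromosome 6, 89829894 to 89874436 of GRCh38) was 51.1 and 57.2 CPM in the controls and 12.7 and 10.1 CPM after FLASH siRNA. The groups did not overlap, and 21% of the control level remained (log2 fold change -2.25, SE 0.17, adjusted p = 4.3e-06 by edgeR's quasi-likelihood test with Benjamini-Hochberg adjustment over all genes, the test behind every adjusted p here, with calls made at 0.05). The log2 fold change of CASP8AP2 was -2.29 without TGFb. NPAT was at 47 and 54.1 CPM in the controls and at 49.5 and 45.7 CPM after FLASH siRNA (log2 -0.09, adjusted p = 0.7), and the groups overlapped. SLBP went from 64.3 and 65.3 to 77.7 and 85.8 CPM (log2 0.34, adjusted p = 0.034). That call was lost without FLASH replicate 2 (0.26), control replicate 1 (0.30) or control replicate 2 (0.35) and with no filter on low counts (0.30). Of 30 genes for histone transcript processing, 3 were lower (CASP8AP2, NCBP2 and the cleavage factor gene WDR33) and 1 was higher (SLBP), with a median of -0.07. The share lower was 10.0%, near the 9.06% of all genes, and 1 of the 3 is the siRNA target itself. With the 8 libraries with TGFb only, or with only the groups compared, 6 were lower. Of the 3, WDR33 was lost without FLASH replicate 2 (-0.34) or control replicate 2 (-0.27). NCBP2, a subunit of the nuclear cap-binding complex, went from 201 and 219 to 136 and 136 CPM (log2 -0.63, adjusted p = 0.00041).

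**Figure D1:**
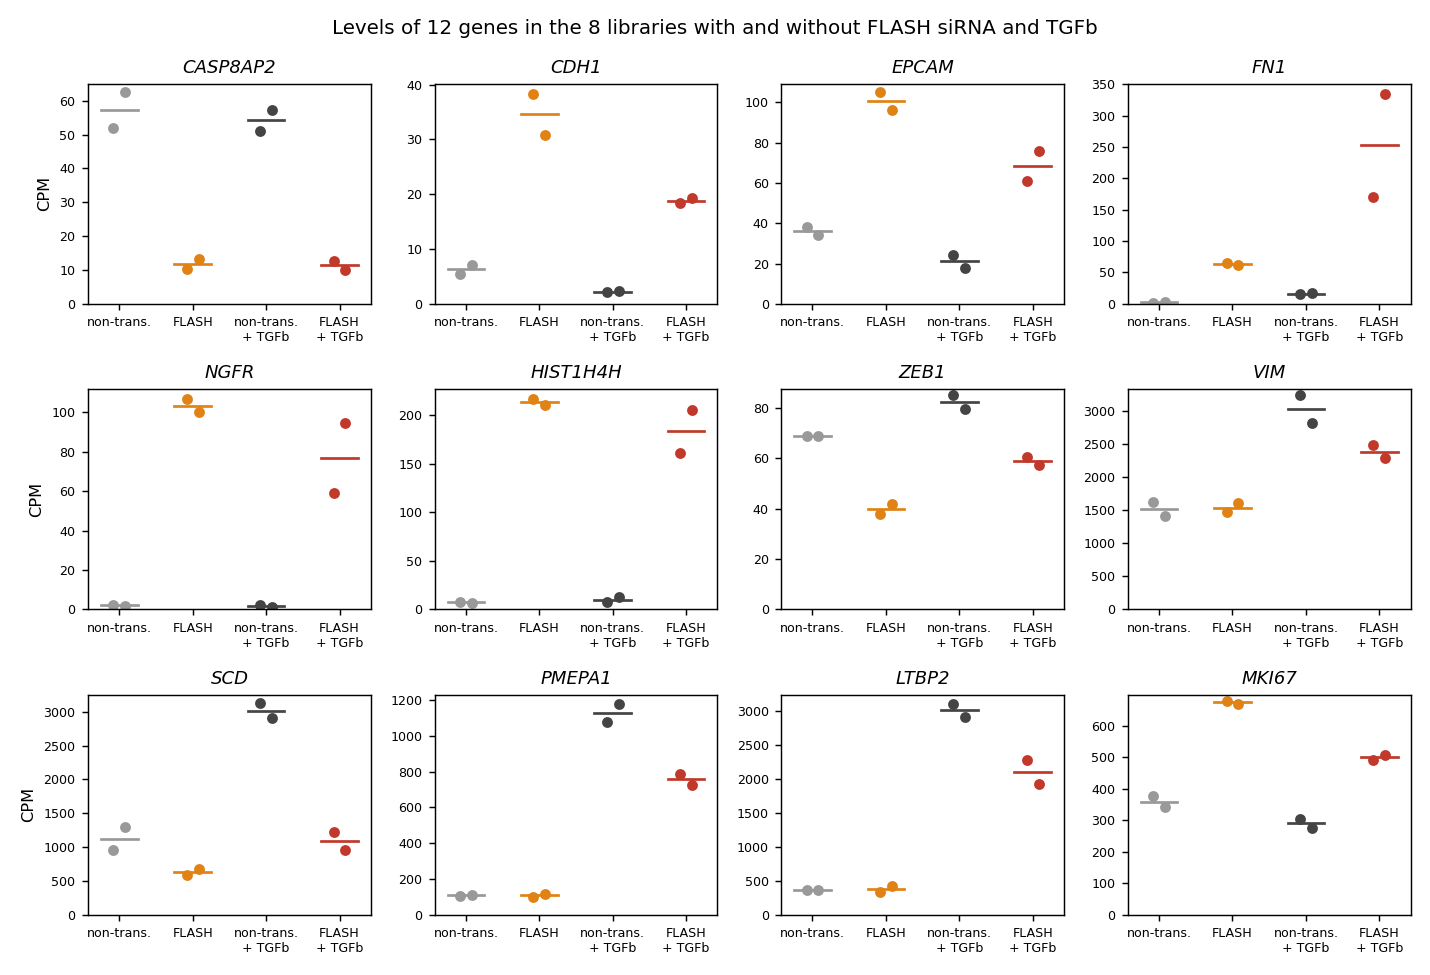
Levels in CPM (y axis, from 0) of 12 genes in 8 libraries, 2 each of non-transfected and FLASH siRNA cells without and with TGFb (x axis); points are libraries and lines are group means. CASP8AP2 lies at 12.7 CPM or less in the 2 libraries with FLASH siRNA and TGFb against 51.1 CPM or more in their controls, CDH1 and FN1 both lie higher, and SCD, PMEPA1 and LTBP2, which are higher with TGFb, lie lower.

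Across all genes, 4717 of 17743 (26.6%) differed, 3109 higher (17.5%) and 1608 lower (9.06%). The shares higher and lower are the background for the counts of gene lists below. The rises were larger than the falls. At least 2-fold changes were found in 2296 genes that were higher (12.9%) and 136 that were lower (0.766%), and the median log2 fold change of all genes tested was 0.01. With 2 libraries a group the count leaned on single libraries. It was 2272 without FLASH replicate 2 (1848 higher and 424 lower), 2582 without control replicate 2 and 3162 without control replicate 1 (999 lower). The 2 groups did not overlap in 12160 genes (68.5%), and 6757 (38.1%) had an unadjusted p under 0.05.

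**Figure D2:**
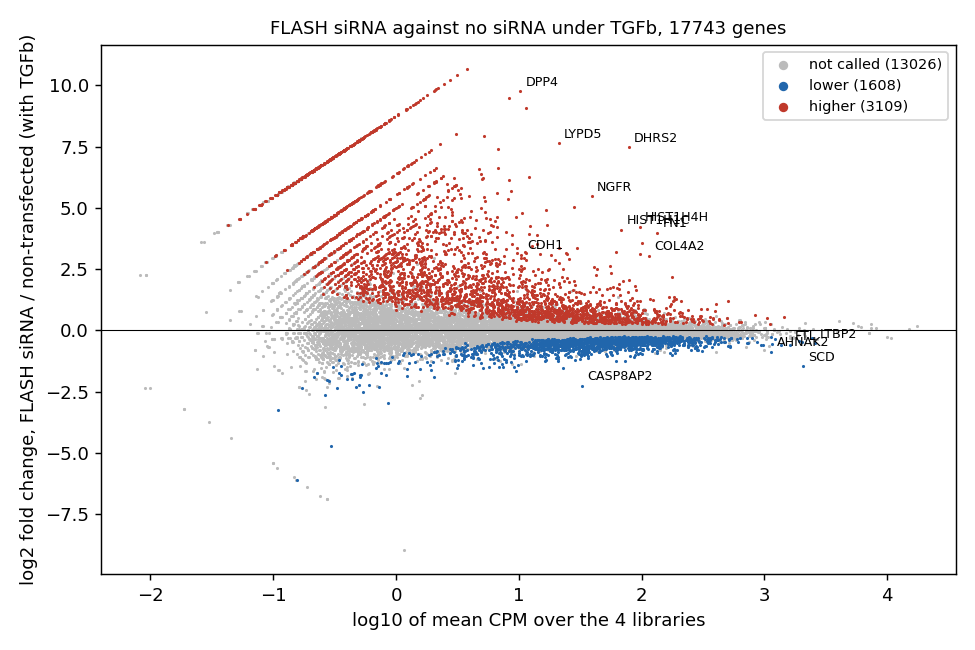
Log2 fold change of FLASH siRNA against non-transfected cells with TGFb (y axis) by the log10 of the mean CPM over the 4 libraries (x axis); each point is a gene, red where higher (3109), blue where lower (1608) and grey where not called. Large rises reach down to genes with few or no counts in the controls, which form the diagonal lines at the upper left and whose fitted values depend on the prior count, while most falls are smaller than 2-fold and lie at the middle and high levels.

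Histone transcripts rose together. Of 40 replication-dependent histone genes tested, 33 were higher and 0 lower, with a median log2 fold change of 2.64 beside 0.01 for all genes. Of the 33, between 28 and 31 were called again when any 1 of the 4 libraries was left out. The filter kept 40 of the 70 genes of these families in the table, and 16 of the 40 had at most 10 counts in the controls, so that they entered through other groups. Summed over all 70 genes, the families took 118.6 and 154.9 CPM in the controls and 801 and 906 CPM after FLASH siRNA. After NPAT siRNA with TGFb the sum was 304 and 294 CPM, and after SLBP siRNA with TGFb it was 930.0 and 1119 CPM. The sum after FLASH siRNA lay above that after NPAT siRNA and below that after SLBP siRNA, in libraries that were selected for poly(A) RNA.

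Among linker histones, HIST1H1C (ENSG00000187837.3, chromosome 6, 26055787 to 26056428) was at 6.42 and 8.41 CPM in the controls and 133 and 125 CPM after FLASH siRNA (log2 4.12, SE 0.24, adjusted p = 7.7e-07). Of the core histone H4, HIST1H4H (ENSG00000158406.4, chromosome 6, 26277609 to 26285638) went from 7.05 and 12.4 to 161 and 205 CPM (log2 4.23, SE 0.24, adjusted p = 7e-07). Both genes stood far outside the spread of their controls. The H3 gene HIST1H3H went from 0.951 and 1.19 to 27.3 and 36.9 CPM (log2 4.90). The H2A gene HIST1H2AC went from 23.7 and 31.5 to 109 and 115 CPM (log2 2.02), and HIST1H2AG from 2.14 and 3.31 to 18.1 and 22 CPM (log2 2.87). Of the H2B genes, HIST1H2BK went from 29.6 and 32.1 to 97.1 and 101 CPM (log2 1.68), HIST1H2BD from 20.7 and 32.6 to 83 and 99.2 CPM (log2 1.77) and HIST2H2BE from 4.08 and 3.7 to 27.6 and 37.7 CPM (log2 3.07). All of these histone genes had adjusted p at or below 0.00023 and separate groups. By class, the median log2 fold change was 3.73 for 5 H1 genes, 2.48 for 9 H2A, 2.20 for 13 H2B, 2.27 for 7 H3 and 3.64 for 6 H4 genes. Histone genes are near-identical copies, so the split of reads among members of a class is uncertain.

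The stem-loop at which FLASH and SLBP act was read from the transcripts and is shown because it marks the transcripts that FLASH helps to cut. In capitals is the match to the stem GGCNCT, the loop TNTN and the returning stem AGNGCC in one run of 16 bases, searched on the sense strand only and flanked by 5 bases on each side, for H2AFX and 6 replication-dependent genes (GRCh38 coordinates from GENCODE release 29).
H2AFX, chr11:119094893-119094918, minus strand: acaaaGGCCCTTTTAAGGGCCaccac
HIST1H2AC, chr6:26124664-26124689, plus strand: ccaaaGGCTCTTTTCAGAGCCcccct
HIST1H2AG, chr6:27133510-27133535, plus strand: ccaacGGCTCTTTTCAGGGCCaccca
HIST1H2BD, chr6:26158582-26158607, plus strand: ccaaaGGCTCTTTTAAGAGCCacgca
HIST1H3H, chr6:27810511-27810536, plus strand: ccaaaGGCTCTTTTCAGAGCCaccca
HIST1H4H, chr6:26285126-26285151, minus strand: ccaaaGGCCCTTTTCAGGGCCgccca
HIST2H2BE, chr1:149886183-149886208, minus strand: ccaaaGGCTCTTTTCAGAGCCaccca
The match was found in annotated transcripts of 32 of the 17743 genes tested (0.18%) and of 24 of the 40 replication-dependent histone genes (60.0%). Of those 24, 20 were higher, and of the 16 without the match 13 were higher. A match counted only in the exact pattern and with 5 annotated bases on each side. The 16 were therefore not shown to lack a stem-loop. The annotated transcripts used for the 7 genes run on past the loop, by 39 bases in HIST1H2BD and by 769 to 1761 bases in the others. Because the search required 5 bases past the match, transcripts that end at the loop could not be among them. Outside the replication-dependent families, 8 tested genes held the match and 2 of them were higher. One was H2AFX, whose histone marks DNA breaks and whose transcript is known to end either at the loop or with a poly(A) tail, and the other was RP11-196G18.22. H2AFX went from 52 and 65.4 to 113 and 157 CPM and so to 230.2% of its control level (adjusted p = 0.00013).

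Promoters of the same families were rich in the CCAAT box, which binds NF-Y. In RefSeq's windows of 300 bases (250 before to 50 after the first listed start, GRCh38.p14), CCAAT on either strand was found in 86.1% of 36 replication-dependent histone promoters and in 36.1% of the 12547 tested genes with a window. The 250 bases before the start of HIST1H1C are shown with its CCAAT box in capitals.
HIST1H1C, chr6:26056471-26056720, minus strand: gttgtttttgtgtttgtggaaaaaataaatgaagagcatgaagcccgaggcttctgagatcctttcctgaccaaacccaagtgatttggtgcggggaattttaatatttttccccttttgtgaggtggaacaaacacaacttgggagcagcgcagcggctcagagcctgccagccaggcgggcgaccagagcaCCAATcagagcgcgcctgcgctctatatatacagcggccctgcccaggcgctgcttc
TATAAA, on either strand, was found in 55.6% of the histone promoters and in 6.22% of all. A match is a description of the sequence, not of binding.

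Replication-independent histone genes had a lower median log2 fold change, at 0.23 beside 2.64 for the replication-dependent genes. Of 11 tested 5 were higher, 1 of them at least 2-fold, and 0 lower. The libraries were selected for poly(A) RNA, and replication-dependent messengers normally end without a poly(A) tail. The medians of the classes are therefore not like measures. The count of replication-independent genes higher was 2 without FLASH replicate 2 or without either control. H1F0, the linker histone of resting cells, went from 175 and 166 to 265 and 243 CPM (log2 0.58, adjusted p = 0.0006). Beside 17.5% of all genes, 45.5% of these 11 histone genes and 23.5% of 17 histone chaperone genes were higher. Among the histone chaperones, ASF1B, which hands new H3 and H4 to the assembly factors, went from 20.2 and 22.6 to 55.9 and 70.3 CPM (log2 1.56, adjusted p = 0.00053). ASF1B was 1 of 4 chaperone genes called higher among 17, or 1 without FLASH replicate 2 or control replicate 1 and 2 without control replicate 2.

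Epithelial genes rose with TGFb present. Of 37 genes for cell adhesion and junctions 20 were higher and 0 lower, with a median of 0.83. E-cadherin (CDH1, ENSG00000039068.18, chromosome 16, 68737225 to 68835548) was at 2.14 and 2.26 CPM in the controls and at 18.4 and 19.2 CPM after FLASH siRNA (log2 3.09, SE 0.21, adjusted p = 2.2e-06). CDH1 also lay above its level in non-transfected cells without TGFb, which was 5.39 and 7.16 CPM. EPCAM, a surface adhesion protein of carcinomas, went from 24.3 and 17.9 to 61 and 76.1 CPM (log2 1.70, adjusted p = 1.7e-05). CRB3, a polarity protein of the apical membrane, was at 0 counts in the controls and at 1.26 and 1.47 CPM after FLASH siRNA, at least 24-fold higher against a floor of 3 counts over the group. The tight junction protein MARVELD3 had 2 and 72 counts in the 2 groups, a ratio of 33.2 (95% interval 8.87 to 279.6). Such intervals and floors cover counting error only.

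Epithelial regulators followed by count of genes but not by summed level. Of 20 tested 13 were higher and 0 lower (median 1.36, 8 higher without control replicate 2). Summed over all 23 genes of the list, the level was 371 and 324 CPM in the controls and 343 and 332 CPM after FLASH siRNA. The sums thus overlapped although 13 genes rose. ESRP1, the splicing factor that sets epithelial transcript forms, went from 2.34 and 2.37 to 9.49 and 9.33 CPM (log2 2.00, adjusted p = 0.0016). OVOL1, a repressor of EMT factors, went from 0.396 and 0.539 to 3.24 and 5.62 CPM (log2 3.22, adjusted p = 7.8e-05). Its paralog OVOL2 had 4 and 152 counts, a ratio of 35.1 (13.4 to 130.4). GATA6, a factor of the classical pancreatic carcinoma type, went from 0.317 and 0.18 to 2.18 and 3.41 CPM (log2 3.48, adjusted p = 0.00076). None of these 4 overlapped between the groups, nor did 68.5% of all genes tested. EHF, an ETS factor of epithelia, was at 0 counts in the controls and at 0.43 and 0.698 CPM after FLASH siRNA, at least 9.84-fold higher.

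Membrane proteases and secreted proteins of epithelia rose in 12 of 23 genes tested, with 0 lower. Their median was 2.14, which became 1.62 when each gene at 0 counts took its bound. Of the 17 with at least 1 CPM in 4 libraries 8 were higher, with a median of 1.05. The matriptase gene ST14 went from 1.98 and 1.33 to 30.3 and 34.4 CPM (log2 4.29, SE 0.38, adjusted p = 1.2e-05). Prostasin (PRSS8), a partner protease of matriptase, had 6 and 379 counts, a ratio of 58.3 (26.5 to 159.9). Both lay beyond the spread of the controls. The protease inhibitor SLPI went from 0 counts to 0.727 and 0.477 CPM, at least 10.8-fold higher. Among keratins 17 of 19 tested were higher and 0 lower (median 3.70, and 2.39 with bounds in place of fitted values for genes at 0 counts). The keratin count was 11 without FLASH replicate 2 and 7 without control replicate 2, and 36 of 55 keratin genes were too low to be tested. Of the 11 keratins with at least 1 CPM in 4 libraries 9 were higher, with a median of 1.34. KRT19, a ductal keratin, went from 55.4 and 40.1 to 109 and 129 CPM (log2 1.32, adjusted p = 0.0031), and the gut keratin KRT20 from 0 counts to 0.529 and 0.881 CPM, at least 12.3-fold higher.

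The repressors of the epithelial state did not move one way. Of 18 EMT transcription factors 5 were higher (27.8%, beside 17.5% of all genes) and 2 lower (11.1%, beside 9.06%). Their median was 0.17. ZEB1 went from 85.1 and 79.8 to 60.5 and 57.2 CPM (log2 -0.49, adjusted p = 0.008), a call lost at -0.45 without FLASH replicate 2. SNAI2 went from 0.674 and 0.539 to 3.93 and 6.76 CPM (log2 3.13, adjusted p = 0.0058), a call lost without FLASH replicate 2 (2.69) or control replicate 2 (2.98). ZEB2 was at 10.2 and 10.3 and then 12.3 and 14.9 CPM (adjusted p = 0.13), and SNAI1 at 36.5 and 48.1 and then 41.2 and 53.2 CPM with overlapping groups (adjusted p = 0.46). FOXQ1 went from 7.33 and 7.47 to 20.1 and 34.1 CPM (log2 1.87, adjusted p = 0.00034), and the homeobox factor PRRX1 had 9 and 309 counts, a ratio of 31.7 (16.5 to 70.0). The count of EMT factors higher was 2 without FLASH replicate 2 or control replicate 2 and 3 without control replicate 1, and 0 were lower without FLASH replicate 2 and 1 without any other library.

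The motif CAGGTG, the E-box to which ZEB and SNAI factors bind, was searched on both strands of the promoter windows. It was found in 18.9% of all 12547, in 22.7% of 2201 promoters of genes that were higher and in 15.5% of 1261 of genes that were lower. The epithelial lists held it more often, in 46.3% of 54 promoters of genes tested. Among the 28 of these that were called higher it was in 42.9%, close to the share among all 54.

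**Figure D3:**
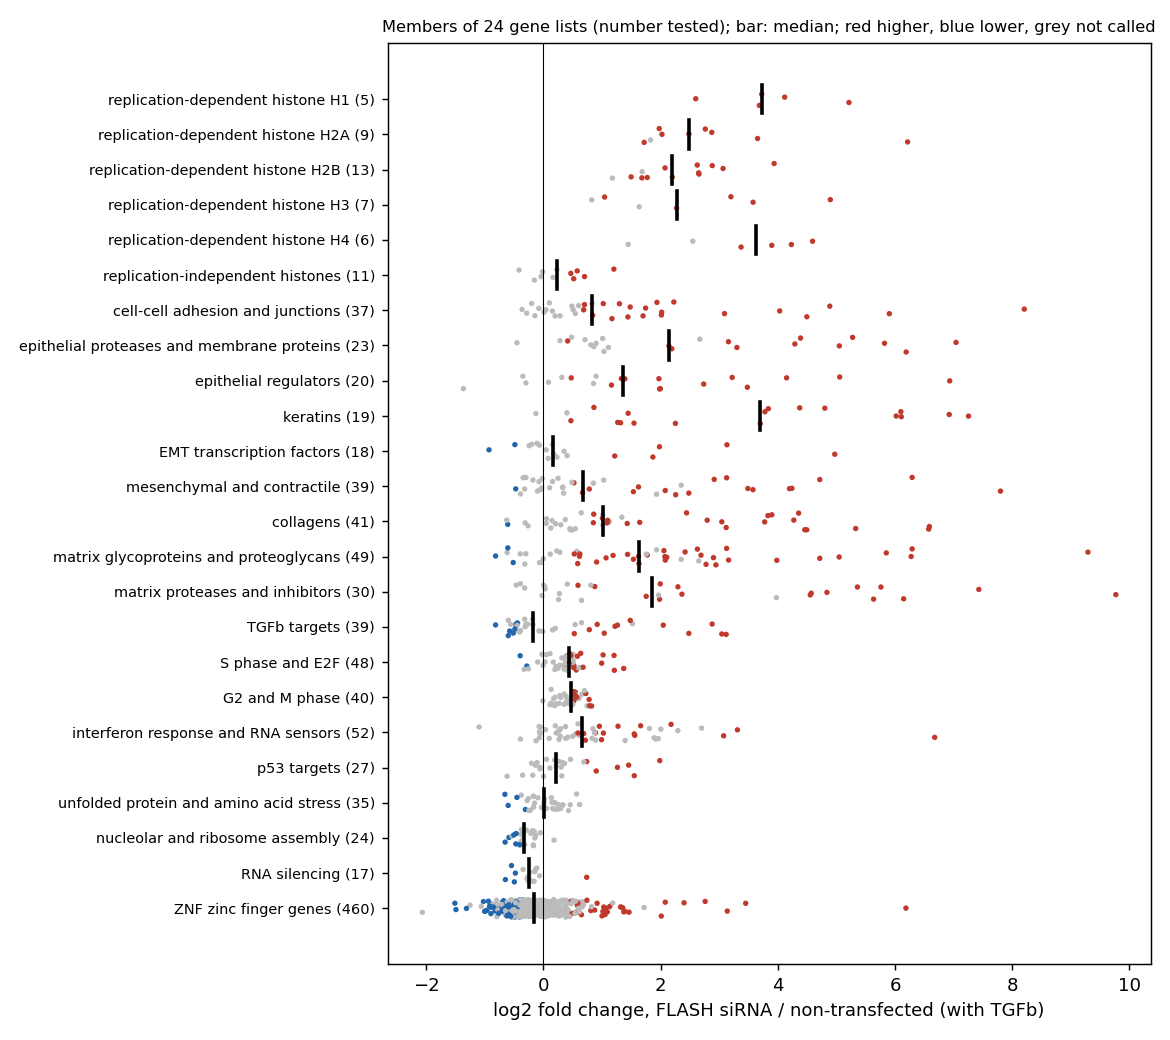
Log2 fold change of FLASH siRNA against non-transfected cells with TGFb (x axis) for the tested members of 24 gene lists (y axis, number tested in brackets); points are genes, red higher, blue lower and grey not called, and bars are medians. Replication-dependent histones, keratins and epithelial and matrix lists lie mostly to the right of 0, EMT transcription factors and TGFb targets lie on both sides, and nucleolar and ZNF genes lie slightly to the left; fitted values above about 5 belong mainly to genes with few or no counts in the controls.

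More mesenchymal genes were higher than lower. Of 39 mesenchymal and contractile genes 17 were higher and 1 lower (0 lower without any 1 of the 4 libraries), with a median of 0.67. Vimentin (VIM) was at 3236 and 2811 CPM in the controls and 2479.8 and 2280.0 CPM after FLASH siRNA, without overlap but short of the threshold (log2 -0.35, adjusted p = 0.057). It passed by DESeq2 (-0.34, adjusted p = 0.037) and with no filter on low counts (-0.38, adjusted p = 0.0035). N-cadherin (CDH2) was at 93.6 and 107 and then 132 and 119.7 CPM (log2 0.33, adjusted p = 0.18), and passed when only the groups compared were fitted (0.33, adjusted p = 0.039). The members that rose most were low in the controls. Kidney cadherin CDH6 went from 0.594 and 0.719 to 8.82 and 16.3 CPM (log2 4.24, adjusted p = 0.00017). Periostin (POSTN), a matrix protein of activated fibroblasts, had 3 and 273 counts, a ratio of 84 (28.4 to 409.8).

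Matrix genes rose widely. Of 49 matrix glycoproteins and proteoglycans 31 were higher and 3 lower, with a median of 1.63. None was lower without FLASH replicate 2. Fibronectin (FN1, ENSG00000115414.18, chromosome 2, 215360440 to 215436172) was at 15.1 and 16.8 CPM in the controls and 171 and 335 CPM after FLASH siRNA (log2 3.98, SE 0.37, adjusted p = 1.8e-05), with its 2 FLASH siRNA libraries well apart. Versican (VCAN) went from 1.31 and 1.94 to 37.9 and 70.3 CPM (log2 5.05) and the basement membrane linker nidogen (NID1) from 286 and 333 to 679.6 and 734 CPM (log2 1.19, adjusted p = 0.0025). The related NID2 was at 0 counts in the controls and 1.95 and 3.85 CPM after FLASH siRNA, at least 50.5-fold higher.

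Collagens were higher in 21 of 41 genes and lower in 1 (median 1.02). Of the 34 with at least 1 CPM in 4 libraries 16 were higher and 1 lower, with a median of 0.88. The basement membrane pair COL4A1 and COL4A2, which share a promoter, moved together. COL4A1 went from 20.9 and 19 to 146 and 200.3 CPM (log2 3.12, adjusted p = 6.7e-06), and COL4A2 from 26.2 and 23.2 to 172 and 236 CPM (log2 3.04, adjusted p = 1.2e-05). COL10A1, the collagen of growth plate cartilage, had 5 and 543 counts, a ratio of 100.2 (42.7 to 309.9). COL18A1, the endostatin precursor, was the member that was lower, from 1188 and 1180.3 to 834 and 719.9 CPM (log2 -0.61, adjusted p = 0.024). Its call was lost without FLASH replicate 2 (-0.51), control replicate 1 (-0.63) or control replicate 2 (-0.61). COL1A1, which took more counts than the other collagens named here, was at 2559.8 and 3004 CPM in the controls and 2346 and 2139 CPM after FLASH siRNA. Summed over 44 collagen genes the level was 4705 and 5268 CPM in the controls and 5049.5 and 4892 CPM after FLASH siRNA, so the sums overlapped although 21 genes rose.

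Among 30 matrix proteases and inhibitors 16 were higher and 0 lower (median 1.86). Of the 19 with at least 1 CPM in 4 libraries 8 were higher, with a median of 0.61. The membrane peptidase DPP4 had 1 and 1152 counts, a ratio of 1063 (190.4 to 42032), and lay at 12.5 and 28.4 CPM after FLASH siRNA. The collagenase MMP1 went from 0.277 and 0.18 to 10.9 and 21.9 CPM (log2 6.15, adjusted p = 0.00011), and the stromelysin MMP3 from 0 counts to 0.496 and 1.1 CPM, at least 13.8-fold higher. Integrins were higher in 9 of 29 genes and lower in 0 (median 0.60). Of the 23 integrins with at least 1 CPM in 4 libraries 6 were higher, with a median of 0.25. ITGA11, a collagen receptor of fibroblasts, went from 1.55 and 1.83 to 11.9 and 12.6 CPM (log2 2.85, adjusted p = 0.00013).

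Of 40 TGFb and BMP ligands, receptors and SMADs 14 were higher and 5 lower (median 0.09). The counts were 9 and 1 without FLASH replicate 2 and 8 and 2 without control replicate 2. The receptors TGFBR1, at 35.1 and 37 and then 38.6 and 37.9 CPM, and TGFBR2, at 127 and 131 and then 139.7 and 119 CPM, did not pass (adjusted p = 0.57 and 1). The ligand BMP2 went from 0.436 and 0.287 to 3.93 and 7.12 CPM (log2 3.92, adjusted p = 5.6e-05), and the activin antagonist follistatin (FST) from 0.436 and 0.647 to 9.19 and 15.3 CPM (log2 4.48, adjusted p = 1.2e-05). SMAD3, the transducer of the TGFb signal, went from 789.9 and 932 to 655 and 563 CPM (log2 -0.50, adjusted p = 0.014), a call lost without FLASH replicate 2 (-0.40) or control replicate 2 (-0.38). SMAD7, its feedback inhibitor, went from 76.9 and 91.2 to 56.2 and 54.8 CPM (log2 -0.60, adjusted p = 0.03), a call lost without FLASH replicate 1 (-0.62), FLASH replicate 2 (-0.58) or control replicate 2 (-0.47) and with upper-quartile scaling (-0.54).

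TGFb target genes went both ways, with 12 of 39 higher and 7 lower and a median of -0.18. The number lower was 2 without FLASH replicate 2 and 16 with no filter on low counts. PMEPA1, a feedback inhibitor of SMAD signalling, was at 107 and 109 CPM in non-transfected cells without TGFb and, with TGFb, went from 1079 and 1176 to 788 and 726 CPM (log2 -0.57, SE 0.11, adjusted p = 0.0018). LTBP2, a binding partner of microfibrils, went from 3101 and 2916 to 2282 and 1930.0 CPM (log2 -0.51, adjusted p = 0.0082), a call lost at -0.40 without FLASH replicate 2. Against these, LOX, which crosslinks collagen, went from 5.15 and 5.25 to 26.2 and 31.9 CPM (log2 2.48, adjusted p = 3.3e-05). TGFBI, a secreted adhesion protein, went from 1257 and 1098 to 1581 and 1814 CPM (log2 0.53, adjusted p = 0.011), a call lost without FLASH replicate 2 (0.42) or control replicate 2 (0.43).

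TGFb-responsive genes were also taken from cells outside the comparison, as those that TGFb changed in the same direction in both NPAT and SLBP siRNA cells. Of 564 genes raised by TGFb there, 200 (35.5%) were higher after FLASH siRNA and 70 (12.4%) lower, with a median of 0.20. The 70 became 15 without FLASH replicate 2, 30 without control replicate 2 and 43 without control replicate 1, and 45 with upper-quartile scaling. Of 237 genes lowered by TGFb, 67 (28.3%) were higher and 9 (3.80%) lower, with a median of 0.27. The 67 became 42 without FLASH replicate 2 and 40 without control replicate 2. Against backgrounds of 17.5% higher and 9.06% lower, both sets held more rises than all genes did. The sets were chosen in siRNA cells, so genes near 0 in non-transfected cells could enter through them, which favours rises. Of the 564 genes, 26 had at most 10 counts in the controls, and all 26 were higher. Of the 237 genes, 10 had at most 10 counts in the controls, and 6 were higher.

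Some cell cycle genes were higher. Of 48 S phase and E2F genes 17 were higher and 2 lower (median 0.43), and of 40 G2 and M phase genes 12 were higher and 0 lower (median 0.47). Without FLASH replicate 2 the S phase genes higher were 5 and the G2 and M phase genes 3, without control replicate 1 they were 6 and 3, and without control replicate 2 they were 9 and 4. Without FLASH replicate 2 the shares higher were 10.4% of the S phase genes and 7.5% of the G2 and M phase genes, at or below the 10.4% of all genes. With only the groups compared the counts higher were 28 and 31. RRM2, the regulated subunit of ribonucleotide reductase, went from 88 and 97.2 to 207 and 272 CPM (log2 1.37, adjusted p = 0.00044). Cyclin E2 (CCNE2), which drives entry into S phase, went from 14 and 15.7 to 26.6 and 33.6 CPM (log2 1.02, adjusted p = 0.00043), and the spindle protein ASPM from 62.3 and 53.6 to 105 and 100.3 CPM (log2 0.82, adjusted p = 0.0014). These 3 calls held without any 1 library. Of 27 p53 targets 6 (22.2%, beside 17.5% of all genes) were higher and 0 lower (median 0.22), or 2 without FLASH replicate 2 and 3 without control replicate 2. The 14-3-3 protein SFN, a checkpoint brake, went from 28.8 and 33.2 to 69.9 and 100.5 CPM (log2 1.46, adjusted p = 0.00021), and the death receptor FAS from 2.66 and 2.77 to 9.45 and 12.1 CPM (log2 1.99, adjusted p = 0.0016). Interferon response genes and RNA sensors were higher in 15 of 52 cases and lower in 0 (median 0.65), falling to 9, 7 and 5 without FLASH replicate 1, FLASH replicate 2 and control replicate 2, and rising to 26 with no filter on low counts. BST2, an interferon-induced tether of virus particles, went from 0.674 and 0.431 to 4.53 and 6.46 CPM (log2 3.31, adjusted p = 0.0032).

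Growth factor receptors were part of the rise. Of 42 receptor tyrosine kinases 22 were higher and 0 lower (median 0.91, 14 higher without FLASH replicate 2). Of the 42, 8 had at most 10 counts in the controls, and all 8 were higher. Of the 36 with at least 1 CPM in 4 libraries 17 were higher, with a median of 0.715. The ephrin receptor EPHA4 went from 0.159 and 0.467 to 13.6 and 20.1 CPM (log2 5.71, adjusted p = 5.5e-06). The VEGF receptor FLT1 had 4 and 765 counts, a ratio of 177 (68.7 to 649.5), and the CSF1 receptor CSF1R had 3 and 230 counts, a ratio of 70.8 (23.9 to 346). Outside this list the neurotrophin receptor NGFR went from 2.1 and 1.37 to 59 and 94.6 CPM (log2 5.47, SE 0.36, adjusted p = 2.2e-06). The dehydrogenase DHRS2 went from 0.951 and 0.79 to 138 and 174 CPM (log2 7.48, adjusted p = 3.3e-05), and the focal adhesion protein TNS1 from 0.396 and 0.216 to 20.2 and 27.5 CPM (log2 6.28, adjusted p = 5.8e-07). None of the 6 genes overlapped between the groups, as in 68.5% of all genes tested. Pregnancy-specific glycoproteins and CEACAMs were higher in 12 of 13 genes tested (median 7.17, and 4.00 with bounds for genes at 0 counts). With at least 1 CPM in 4 libraries 7 were tested, of which 6 were higher. PSG9, a placental secreted protein, had 7 and 768 counts, a ratio of 101 (48.9 to 253), and PSG1 went from 0 counts to 2.25 and 3.74 CPM, at least 52.3-fold higher. The PSG genes are near-identical copies, so the split of reads among them is uncertain.

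Many of the large rises were of genes near silence. Genes were grouped by their mean level in the 2 non-transfected libraries without TGFb, which lie outside the comparison. Below 0.1 CPM, 884 of 1176 genes tested (75.2%) were higher and 0 lower, with 601 higher without FLASH replicate 2 and 585 without control replicate 2. Such genes pass the filter only through another group, so rises are favoured among them. Over 100 CPM, 88 of 2204 genes (3.99%) were higher and 404 (18.3%) lower. With upper-quartile scaling 131 of these genes were higher and 276 lower, so the split depended on the scaling. The 404 became 102 without FLASH replicate 2, 162 without control replicate 2 and 260.0 without control replicate 1, and the 88 became 39, 38 and 55.

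**Figure D4:**
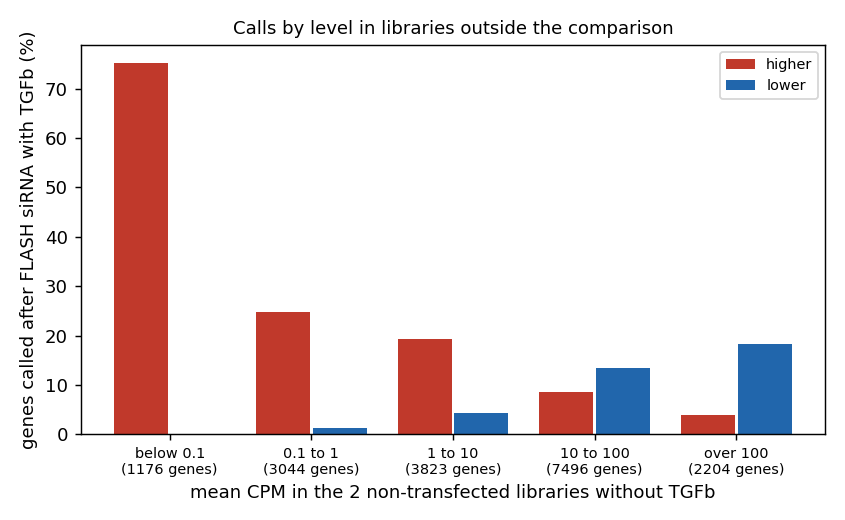
Share of genes called higher (red bars) and lower (blue bars) after FLASH siRNA with TGFb (y axis, %, from 0) by mean CPM in the 2 non-transfected libraries without TGFb (x axis, number of genes in brackets). The share higher goes from 75.2% of genes below 0.1 CPM to 3.99% of genes over 100 CPM, and the share lower from 0 to 18.3%.

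In 136 genes (121 protein-coding) the 2 controls together had at most 3 counts while both FLASH siRNA libraries were at 1 CPM or more. The reverse was found in 0 genes. These values chose the 136 genes and are a description. The genes took 0.0309% and 0.0499% of the counts of the 2 FLASH siRNA libraries. Of the 136, 85 also reached 1 CPM in both FLASH siRNA libraries without TGFb, 51 in both SLBP siRNA libraries with TGFb and 21 in both NPAT siRNA libraries with TGFb. Among them is MYCT1, a nuclear protein studied as a tumour suppressor, with 2 and 1278 counts, a ratio of 589.8 (163 to 4875). The 250 bases before its start are shown for the TATAAA in capitals.
MYCT1, chr6:152697696-152697945, plus strand: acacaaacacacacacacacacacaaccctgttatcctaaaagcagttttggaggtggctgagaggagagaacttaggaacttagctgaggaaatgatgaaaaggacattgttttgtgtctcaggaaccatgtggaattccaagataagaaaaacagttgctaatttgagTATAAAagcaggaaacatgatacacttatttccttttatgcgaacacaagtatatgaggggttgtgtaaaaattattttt
Of 82 such promoters with a window, 13.4% held TATAAA, against 10.2% of 2201 promoters of genes called higher and 6.22% of all. The median ratio of observed to expected CpG was 0.30 in these 82, 0.731 in the 2201 and 0.824 in all 12547. Near-silent genes that did not rise were not set beside them.

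Markers of other cell types were among the near-silent genes that rose. Of 8 endothelial markers tested 6 were higher (3 without control replicate 2), and the summed level of all 11 was 34.2 and 40.2 CPM in the controls and 67.4 and 88.5 CPM after FLASH siRNA. All 6 endothelial markers that were higher had at most 10 counts in the controls. Von Willebrand factor (VWF) went from 0 counts to 5.92 and 9.29 CPM, at least 133-fold higher. After FLASH siRNA PECAM1 stood at 0.231 and 0.294 CPM and CDH5 at 0.264 and 0.147 CPM. Of 12 stellate and fibroblast markers 8 were higher (3 of 6 with at least 1 CPM in 4 libraries), and the sum of all 13, mostly COL1A1, was 2573 and 3017 CPM in the controls and 2405 and 2212 CPM after FLASH siRNA. THY1 went from 5.79 and 6.25 to 40.5 and 50.4 CPM, whereas DCN stood at 0.0992 and 0.22 CPM and LUM at 0.0992 and 0.33 CPM. Of 7 leukocyte markers 2 were higher (1 without FLASH replicate 2 or control replicate 1), and the sum of 16 was 62.5 and 48.7 CPM in the controls and 82.6 and 98.4 CPM after FLASH siRNA. PTPRC was at 0.0661 and 0.11 CPM and CD3E at 0.0992 and 0 CPM after FLASH siRNA. Of the acinar and endocrine markers, 1 of 2 and 2 of 4 tested were higher (1 endocrine marker without FLASH replicate 2 or control replicate 2), with INS at 0 counts in all 4 libraries. The part of other cells in these results was not tested, and in bulk RNA fewer cells of a type and less RNA per cell cannot be told apart.

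Genes that fell did so by less. CASP8AP2 had the lowest log2 fold change among genes with a mean of at least 5 CPM. Among the 20 lowest were the zinc finger genes ZNF25, from 11.1 and 11.1 to 4.36 and 3.41 CPM (log2 -1.51, adjusted p = 0.00041), and ZNF624, from 9.51 and 10.9 to 3.87 and 3.38 CPM (log2 -1.49, adjusted p = 0.00027). Of 460 ZNF genes tested 75 were lower (16.3%, beside 9.06% of all genes) and 30 higher (6.52%, beside 17.5%). Their median was -0.15. Without FLASH replicate 2 the counts were 19 and 14, without control replicate 2 they were 29 and 16, and without control replicate 1 they were 52 and 16. SCD, the desaturase that makes oleic acid, lost more CPM than any other gene called, from 3126 and 2905 to 1219 and 959 CPM (log2 -1.47, SE 0.27, adjusted p = 0.0019). MID1IP1, which stimulates fatty acid synthesis, went from 37.8 and 43 to 18.9 and 15.8 CPM (log2 -1.22, adjusted p = 0.00041). AHNAK2, a large scaffold protein, went from 1521 and 1428 to 887 and 722 CPM (log2 -0.87, adjusted p = 0.0012). Among 17 iron genes 4 were lower and 1 higher (1 lower without FLASH replicate 2, 2 without control replicate 1), with the transferrin receptor TFRC going from 346 and 373 to 223 and 195 CPM (log2 -0.78, adjusted p = 0.00018). Of 36 DNA methylation and Polycomb genes 8 were lower and 3 higher (median -0.01, and 0.05 with upper-quartile scaling; 4 and 1 without FLASH replicate 2 or control replicate 2). EZH1, a histone H3 methyltransferase, went down to 52.2% of its control level (log2 -0.94, adjusted p = 0.002). The share lower was 23.5% of the 17 iron genes and 22.2% of these 36 genes, beside 9.06% of all genes. Nucleolar and ribosome assembly genes were lower in 6 of 24 cases and higher in 0 (median -0.34), or 2 without FLASH replicate 2 or control replicate 2 and 14 with only the groups compared.

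Most of the genes called with TGFb were also called without it, in libraries that the 2 comparisons do not share. Without TGFb 5989 genes differed after FLASH siRNA (33.8%), 3696 higher (20.8%) and 2293 lower (12.9%). The 5989 became 3772 without FLASH replicate 1 and 3931 without non-transfected replicate 1 of the cells without TGFb. Of the 3109 genes higher with TGFb, 2681 were higher without it (86.2% of the first list and 72.5% of the second), and of the 1608 lower, 1329 were lower without it (82.6% and 58.0%). With FLASH replicate 2 left out of the comparison with TGFb, 1727 of 1848 (93.5%) and 393 of 424 (92.7%) were. Across the 17743 genes the fold changes of the 2 comparisons correlated at 0.871 (Pearson) and 0.843 (Spearman), over genes that share libraries and are not independent. The calls were opposite in 2 genes, HTR1D and the chorionic gonadotropin subunit CGB7. CGB7 was at 7.53 and 6.93 and then 4.03 and 5.18 CPM with TGFb, and at 1.57 and 1.83 and then 3.37 and 3.13 CPM without it. CGB7 has near-identical copies, so its share of reads is uncertain, and the fall of HTR1D with TGFb was lost without FLASH replicate 2 (-0.44).

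**Figure D5:**
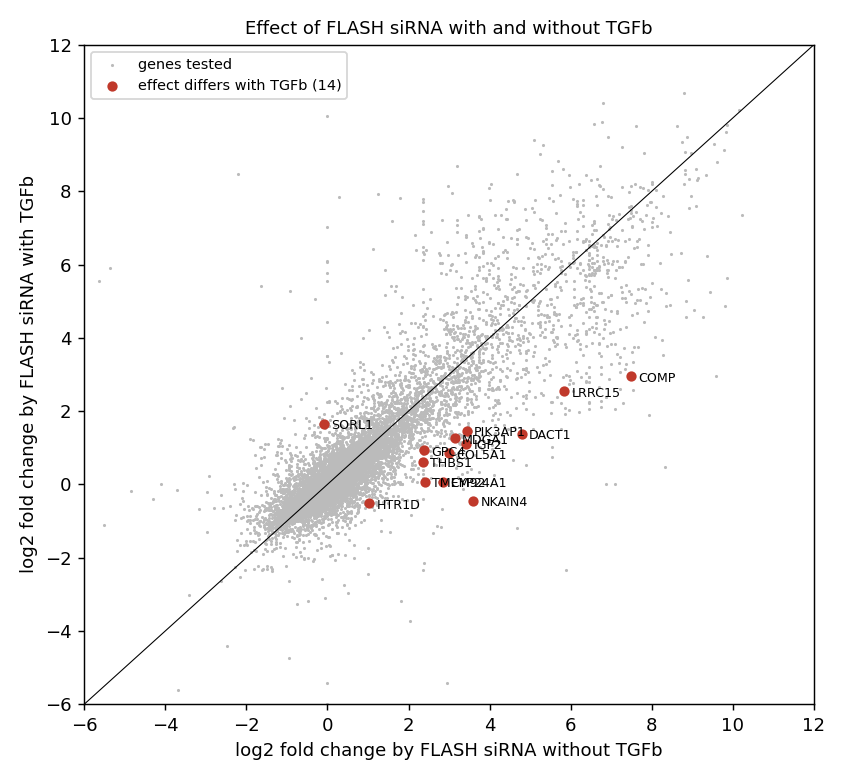
Log2 fold change by FLASH siRNA with TGFb (y axis) against that without TGFb (x axis) for the genes tested (grey) and 14 genes whose change differed between the 2 (red), with the line of equal change; 11 genes lie outside the axes. Of the 14, 13 lie below the line and SORL1 lies above it.

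The log2 fold change by FLASH siRNA differed with TGFb in 15 genes (interaction test, 0.0845% of those tested). It was higher with TGFb in 1 gene (0.00564%) and lower in 14 (0.0789%). In CPM, COMP and COL5A1 rose by more with TGFb than without it, and IGF2 by less. SORL1, a sorting receptor, was at 48.1 and 38.8 CPM in the controls and 153 and 119.7 CPM after FLASH siRNA with TGFb, and at 61.3 and 54.6 and 59.5 and 50.2 CPM without it (interaction 1.73, adjusted p = 0.028). The cartilage protein COMP was at 2.54 and 2.52 and then 16.9 and 22.1 CPM with TGFb, and at 0.0357 and 0.0762 and then 11.1 and 10.3 CPM without it (interaction -4.53, adjusted p = 0.028). COMP was thus near 0 in non-transfected cells without TGFb and higher after FLASH siRNA in both states. The growth factor IGF2 was at 41.8 and 36 and then 81.4 and 86.9 CPM with TGFb, and at 6.39 and 5.98 and then 65.6 and 67.3 CPM without it (interaction -2.31, adjusted p = 0.0011). The fibrillar collagen COL5A1 was at 44.3 and 37.7 and then 68.8 and 79.3 CPM, and at 1.32 and 1.41 and then 11.1 and 10.7 CPM without TGFb (interaction -2.14, adjusted p = 0.0019). The serotonin receptor HTR1D went down with TGFb, from 52.9 and 54.8 to 39.7 and 35.5 CPM, and up without it, from 4.57 and 4.38 to 8.78 and 9.54 CPM (interaction -1.55, adjusted p = 0.0019). Without 1 library the count of genes lay between 7 and 14, with 7 when either non-transfected library without TGFb was left out and 10 without control replicate 2. The calls of SORL1 and COMP were lost in 7 of 14 alternative fits, and those of IGF2, COL5A1 and HTR1D held in all 14. The unadjusted p was under 0.05 in 597 genes (3.36%).

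Against the other siRNAs with TGFb, FLASH siRNA cells differed in 2411 genes from NPAT siRNA cells (13.6%), with 1612 higher (9.09%) and 799 lower (4.5%), and in 2311 genes from SLBP siRNA cells (13.0%), with 1472 higher (8.3%) and 839 lower (4.73%). These 2 comparisons share the FLASH siRNA libraries. In both, 792 genes differed in the same direction, 580 higher and 212 lower, and 430 and 120 of these were also called that way against the controls. Single libraries decided these counts. Without FLASH replicate 2 the comparisons with NPAT and SLBP siRNA called 434 and 420 genes, with 61 higher and 16 lower in both, and without FLASH replicate 1 they called 1600 and 1519, with 444 and 152 in both. The first was 1549 and 420 without NPAT replicates 1 and 2, and the second 954 and 574 without SLBP replicates 1 and 2. Of the 20 genes with the largest differences in both comparisons, 5 kept both calls in every fit without 1 library, namely KIAA0040, PARM1, GATSL3, TMEM144 and CASP8AP2. KIAA0040, at 13.4 and 23.1 CPM after FLASH siRNA and 0.753 and 0.719 CPM in the controls, was at 3.43 and 2.81 CPM after NPAT siRNA and 2.92 and 2.4 CPM after SLBP siRNA. FLASH siRNA cells were thus higher by log2 2.55 (adjusted p = 0.00056) and 2.77 (adjusted p = 0.00034). The membrane mucin PARM1, at 12.5 and 22.9 CPM, was at 3.6 and 5.52 and 5.14 and 5.94 CPM (log2 1.95 and 1.68, adjusted p = 0.0014 and 0.0026). GATSL3, which encodes a cytosolic arginine sensor, was lower, at 12.7 and 12.1 CPM after FLASH siRNA against 25.5 and 30.4 and 30.6 and 32.7 CPM (log2 -1.18 and -1.35, adjusted p = 0.00045 and 0.00013). CASP8AP2, at 12.7 and 10.1 CPM after FLASH siRNA, was at 38.2 and 41.3 CPM after NPAT siRNA and 42.2 and 54.6 CPM after SLBP siRNA. CDH1 was at 15.5 and 15.6 CPM after NPAT siRNA and 3.36 and 2.85 CPM after SLBP siRNA, and FN1 at 54.1 and 80.2 and 224 and 323 CPM.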

How the data were processed

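Messenger RNA of 16 libraries of PANC-1 cells (8 groups of 2) was measured. RNeasy purification and the poly(A)-selecting TruSeq Stranded mRNA kit are given per the labels' protocols. The tools STAR 2.4.2a and RSEM 1.2.31 and the build GRCh38.p10 are named per the submitters' processing notes. The deposited values used here are the authors' expected counts per gene, in which a read that fits more than 1 gene is divided. Of all these values, zeros included, 2.98% are not whole. The strand setting is not given in the sources used here. A further 64 columns of the table were not used.

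Expected counts were rounded to whole numbers. Of 58219 genes, 26056 had no count, and filterByExpr kept 17743, of which 99.7% were matched to GENCODE release 29. TMM factors set the library scale, and all libraries were fitted together with edgeR 4.0.16 (R 4.3.3), 1 mean per group, leaving 8 residual degrees of freedom. Each comparison was a two-sided quasi-likelihood F test, adjusted by Benjamini-Hochberg over the 17743 genes and called at 0.05. Levels are CPM of the library totals over the genes tested, scaled by the TMM factors. For genes with 10 or fewer counts in the 2 controls together, text gives the count ratio with its exact 95% interval, and genes at 0 counts by a floor of 3 counts over the group. The fit was also run on simulated data in which few genes, none of them near silence, were changed. That run does not test the scaling or the rises from low counts in these data.

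The comparison, its 44 gene lists and 8 marker lists and the rule for named genes were chosen with earlier results of these data known. Lists built from symbol patterns (such as ZNF) hold protein-coding genes only. Named genes were the siRNA targets, a set of EMT and TGFb genes, the 20 highest and 20 lowest fold changes and 12 largest rises and falls in CPM among called genes whose groups were separate and whose mean reached 5 CPM, the 4 largest changes of each list, the 6 highest histone genes, and up to 10 genes each way for the interaction and for the other siRNAs. Other genes given with values are cell type markers, and some genes are not reported here. Sequences and promoter windows are from GENCODE 29 transcripts and from RefSeq (GRCh38.p14), matched by symbol for 70.7% of genes tested. Alternatives were DESeq2 1.42.0, upper-quartile scaling, other filters, other sets of libraries, the replicate number as a block, and each library left out.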

Additional observations from a re-analysis of the deposited data

Results flagged for a closer look

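The change by FLASH siRNA differed with TGFb in 15 genes, by the interaction test over all genes. Each value here is the log2 fold change with TGFb minus that without it. It was 1.73 for SORL1, where the rise was found with TGFb. It was below 0 for 14 genes, of which 13 are given: -4.53 for COMP, -4.05 for NKAIN4, -3.42 for DACT1, -3.31 for LRRC15, -2.80 for CYP24A1, -2.34 for TMEM92, -2.31 for IGF2, -2.14 for COL5A1, -1.99 for PIK3AP1, -1.87 for MDGA1, -1.74 for THBS1, -1.55 for HTR1D and -1.45 for GPC4. Among these 13 the change by FLASH siRNA without TGFb was a rise in each. In non-transfected cells without TGFb the 2 libraries together held 3 counts of COMP, 7 of NKAIN4, 6 of DACT1 and 13 of LRRC15. The fitted values of these genes therefore rest on few counts. The difference passed the threshold in all 14 alternative fits for COL5A1, HTR1D, IGF2, MDGA1, NKAIN4 and TMEM92, and in 5 of 14 for PIK3AP1. COMP, GPC4 and SORL1 passed in 7, THBS1 in 9 and CYP24A1, DACT1 and LRRC15 in 12.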

How the results depend on the processing

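The count of genes that differed with TGFb (4717) lay between 3761 (at least 1 CPM in 4 libraries) and 5552 (no filter on low counts). It was 4827 by DESeq2, 5343 with the 8 libraries with TGFb only and 5549 with the 4 libraries only. With upper-quartile scaling it was 4562, of which 3408 were higher and 1154 lower, beside 3109 and 1608 in the main fit. Leaving out 1 library gave 2272 to 3857. Without TGFb (5989) it was 5030 to 6771, and 3772 to 4375 without 1 library. Against NPAT siRNA the same choices gave 2349 to 3183, and 420 to 1600 without 1 library. Against SLBP siRNA they gave 2234 to 3124, and 420 to 1519 without 1 library. The 15 genes of the interaction became 31 by DESeq2 and 157 with no filter on low counts, which tests more genes, and 7 to 14 without 1 library. The causes of these shifts were not tested.

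With the replicate number as a block, 6830 genes differed with TGFb, 8083 without it, 26 by interaction, 4652 against NPAT siRNA and 4518 against SLBP siRNA. Deviations of same-numbered libraries from their group means correlated at 0.176 in the 2 main groups and at 0.05 to 0.528 over 28 pairs of groups, 25 of them over 0.1. The labels do not say that a number marks a shared culture or day, and the correlation was not over 0.1 in every pair, so the fit without the block was kept as the main one.

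The filter of at least 1 CPM in 4 libraries removed some named genes before testing, and these are not counted as lost. With that filter 226 named genes kept their result and 2 lost the call. Of 282 named genes followed, 263 passed the threshold. Of these, 97 were lost without 1 library and 18 under another choice, and 0 turned direction. Calls were lost for 82 genes without FLASH replicate 2 and for 71 without control replicate 2, so at 2 libraries a group many single-gene calls rest on those libraries.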
